A study of Mus musculus with 6 samples.

Results

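Processed pseudogenes are copies of messenger RNA that were reverse transcribed and inserted back into the genome. The 822 described here were chosen by their reads: every gene of that class in the GENCODE M21 annotation (750 of the biotype processed_pseudogene and 72 of transcribed_processed_pseudogene) with at least 10 estimated reads in 2 or more of 6 RNA sequencing libraries. They are 822 of 10159 processed pseudogenes and of 54123 genes with a value, and 5816 processed pseudogenes had 0 reads in all 6 libraries. The libraries are total RNA of muscle satellite cells, the stem cells of skeletal muscle, sorted by flow cytometry from the tibialis anterior and gastrocnemius of adult C57BL/6 mice at 30 hours after cardiotoxin, a snake toxin that injures muscle. The 3 genotypes, all injured, are Jmjd3 KO, Utx KO and Tdt Control, with 2 libraries each. Jmjd3 (gene Kdm6b) and Utx (gene Kdm6a) are demethylases of lysine 27 on histone H3. The labels give neither the alleles nor the Cre that made the knockouts, and do not say whether replicates came from separate mice, so p-values measure only the spread between these libraries.

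A processed pseudogene, or retrocopy, has no introns, often keeps the remnant of a poly(A) tail, and usually lies on another chromosome than its parent gene. It arrives without the promoter of the parent, so most retrocopies are silent and a few are transcribed from promoters nearby. Genes with abundant short messenger RNA in the germ line, above all those of ribosomal proteins and of Gapdh, have left the most copies. Because copy and parent are nearly identical, a short read can match both, and a quantifier then divides it between them by a statistical model.

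The sequences here, from the GENCODE M21 transcripts, show how little separates a retrocopy from its parent. They begin with the copies of Phgdh, which encodes phosphoglycerate dehydrogenase, the enzyme of the committed step of serine synthesis. The stretch covers bases 406 to 495 of the Phgdh coding sequence and is the 90-base stretch, aligned without gaps in all the copies shown, in which even the closest copy differs most. Capitals mark bases of a copy that differ from Phgdh. On GRCm38 the Phgdh stretch lies in 2 exons within chr3:98328062-98328294 (minus strand), and the copies are at chr8:75712700-75712789 (Gm7901, minus), chr7:136811319-136811408 (Gm9347, plus), chr14:95420184-95420273 (Gm5207, plus), chr15:19455859-19455948 (Gm8341, minus), chr2:22068231-22068320 (Gm13337, plus), chr7:83711225-83711314 (Phgdh-ps1, minus) and chr7:41667627-41667716 (Gm9252, minus).
Phgdh: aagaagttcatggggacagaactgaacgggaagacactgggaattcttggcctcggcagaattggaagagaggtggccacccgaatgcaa
Gm7901: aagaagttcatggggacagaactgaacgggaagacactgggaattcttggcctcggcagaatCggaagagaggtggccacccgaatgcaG
Gm9347: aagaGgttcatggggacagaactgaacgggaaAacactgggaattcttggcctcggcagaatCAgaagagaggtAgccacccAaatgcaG
Gm5207: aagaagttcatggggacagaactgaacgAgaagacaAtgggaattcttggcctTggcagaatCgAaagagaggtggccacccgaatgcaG
Gm8341: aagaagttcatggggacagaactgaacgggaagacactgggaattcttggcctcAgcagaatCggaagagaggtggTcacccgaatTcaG
Gm13337: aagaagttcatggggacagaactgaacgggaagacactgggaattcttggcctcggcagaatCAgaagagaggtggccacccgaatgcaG
Phgdh-ps1: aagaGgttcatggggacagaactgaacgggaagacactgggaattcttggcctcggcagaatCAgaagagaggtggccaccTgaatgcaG
Gm9252: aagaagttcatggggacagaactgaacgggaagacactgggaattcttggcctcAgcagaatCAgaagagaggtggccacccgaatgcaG
Between 2 bases (Gm7901) and 7 bases (Gm9347) of the 90 differ from Phgdh. A difference occurs in any of the 7 copies at 15 positions, and at 2 of these all 7 copies carry the same base, which is not that of Phgdh. Over the whole coding sequence Gm7901 differed at 18 of 1595 aligned bases, Gm9347 at 35 of 1601 and Gm5207 at 76 of 1576. Among the 8 copies of Phgdh that met the rule, 198 coding positions had a base unlike Phgdh in 1 copy only, 6 had the same such base in 7 copies and 2 had it in all 8.

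The next pair shows Eif5a, a translation factor that helps ribosomes past difficult peptide bonds, and its copy Eif5al3-ps at chr5:90132456-90132545 (plus strand), over coding bases 228 to 317 of Eif5a. The pair after it shows Arf1, a small GTPase of vesicle transport, and Gm19587 at chr1:43888107-43888196 (plus), over coding bases 55 to 144. They are shown because both copies were higher in Jmjd3 KO. The last pair shows Rpl12, a protein of the large ribosomal subunit, and Gm10275 at chr10:29699201-29699290 (minus), over the first 90 coding bases, because this copy has the highest level of all and not a capital in it.
Eif5a: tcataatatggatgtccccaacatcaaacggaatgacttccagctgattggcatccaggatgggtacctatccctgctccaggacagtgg
Eif5al3-ps: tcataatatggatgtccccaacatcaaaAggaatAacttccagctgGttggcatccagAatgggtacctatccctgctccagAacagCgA
Arf1: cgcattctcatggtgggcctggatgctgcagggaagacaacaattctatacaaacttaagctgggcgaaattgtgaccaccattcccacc
Gm19587: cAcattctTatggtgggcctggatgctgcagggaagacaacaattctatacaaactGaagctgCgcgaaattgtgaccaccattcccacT
Rpl12: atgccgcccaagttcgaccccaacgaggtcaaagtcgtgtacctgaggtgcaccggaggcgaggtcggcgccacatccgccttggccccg
Gm10275: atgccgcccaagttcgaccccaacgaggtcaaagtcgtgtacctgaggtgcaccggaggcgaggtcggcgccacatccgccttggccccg
Eif5al3-ps differed from Eif5a at 7 of the 90 bases shown and at 12 of 434 aligned coding bases. Gm19587 differed from Arf1 at 5 and at 16 of 538. Gm10275 matched Rpl12 at all 498 coding bases, so that no read within them can tell the 2 apart.

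A parent was assigned to 793 of the 822 retrocopies, as the protein-coding gene with the best alignment over at least 50% of the copy. There were 311 parents, 97 of them with more than 1 expressed copy. Gapdh, a glycolytic enzyme, had 60 copies, Rps2 had 33, Rpl7a had 30 and Hmgb1, a chromatin protein, had 25. Cytosolic ribosomal proteins were the parents of 316 copies in all. Identity to the parent had a median of 97.9% (quartiles 95.4% and 99.3%), and 58 copies matched it completely. On another chromosome than the parent lay 745 copies. By position, 484 lay between genes, 131 in introns on the strand of the host gene and 126 in introns on the other strand. An exon of another gene was overlapped by 28 on its strand and by 53 on the other. The parent is a reading from sequence alone, and 25 copies had a parent with a single exon that may itself be a copy.

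How far a retrocopy could be measured apart from other genes was read from its words, the 31-base stretches of its transcript. The share of words found in no transcript of another gene, called own words here, had a median of 23.9%. For 81 copies it was 0, and for 169 it was at least 50%. A value for a copy with few own words rests on the division of shared reads and is uncertain. The rule kept low genes: 217 members had between 10 and 15 reads in their second-highest library, where the lowest member had 10 reads and the highest pseudogene outside had 9.963.

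Most retrocopies were expressed at a trace. The median of the mean TPM (a level per transcript length) was 0.324, and 642 of 822 had a mean under 1 TPM. At the top, 29 had a mean of at least 100 TPM, and 28 of these had under 10% own words. Relative to the parent, the median copy had 0.0818% of its TPM, and 598 of 793 had under 1%. A copy exceeded its parent in all 6 libraries in 52 cases, of which 13 had at least 50% own words. Retrocopies took between 0.787% and 0.829% of the reads of a library (0.826% and 0.787% in Jmjd3 KO, 0.789% and 0.810% for the controls, 0.816% and 0.829% for Utx KO). Both Utx KO libraries were slightly above both controls, and the Jmjd3 KO libraries lay on either side of the controls. Between 64.1% and 67.5% of the reads on retrocopies fell on ribosomal protein copies, and between 46.5% and 47.6% on copies with no own words.

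**Figure D1:**
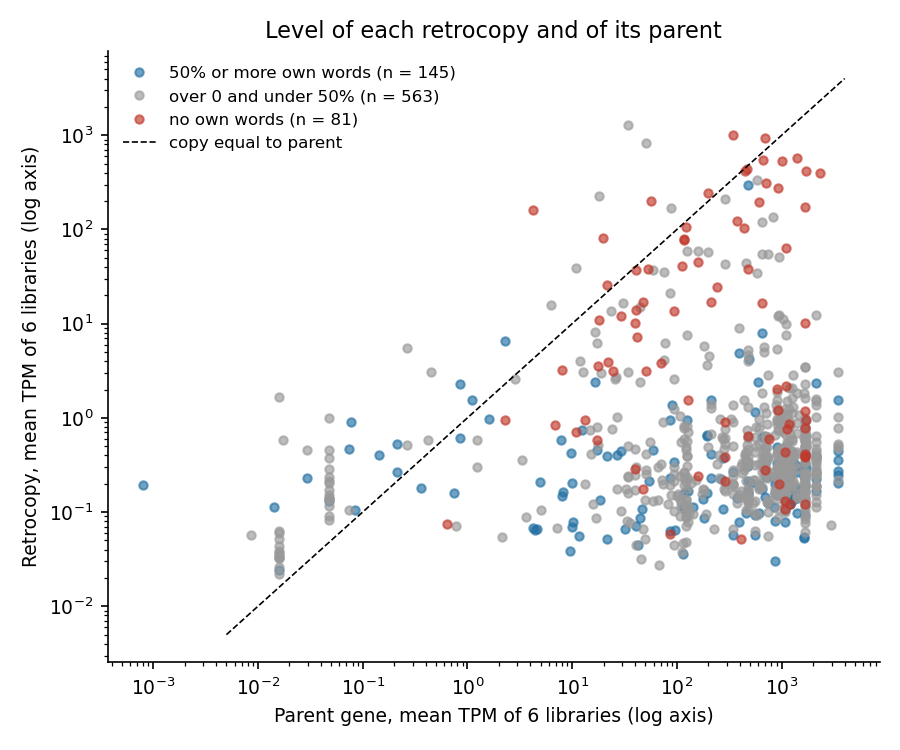
Mean TPM over 6 libraries of each retrocopy (vertical, log axis) against that of its parent gene (horizontal, log axis), for 789 copies whose parent was above 0. Copies with no own words are red (n = 81), with at least 50% blue (n = 145) and the others grey (n = 563), and the dashed line marks equal levels: most points lie far below it, and the points above 100 TPM are nearly all red or grey.

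The 10 retrocopies with the highest levels all matched their parents completely and had own words between 0 and 3.97%. Gm10275 reached 1350 and 1220 TPM in the Jmjd3 KO libraries, 1170 and 1300 in the controls and 1350 and 1300 in the Utx KO libraries, while its parent Rpl12 was between 32.0 and 36.8 TPM. Gm15500, a copy of the ribosomal protein gene Rpl5, had a mean of 828 TPM against 50.4 for Rpl5. In these 2 families most reads were placed on the retrocopy, although the sequences do not tell the 2 apart over the coding region. The split differed between families with equal identity. Gm7536 had a mean of 1000 TPM against 342 for Rpl27a, Rps23-ps1 had 936 against 695 for Rps23, and Rps16-ps2 had 551 against 671 for Rps16. Gm11518 was at 441 TPM and Rpl27 at 471, Rpl28-ps1 at 420 and Rpl28 at 448, and Gm10443 at 538 and Rps28 at 1000. Tpt1-ps3, a copy of the growth-related gene Tpt1, was at 571 against 1390, and Gm10123 at 418 against 1710 for Ppia, which encodes cyclophilin A. These values describe the division of shared reads and are not a measure of transcription of either locus.

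Among retrocopies with at least 50% own words and a mean of 0.5 CPM, the ones highest relative to their parent were mostly copies of genes hardly expressed here. CPM are estimated reads scaled by the effective library size. AC098880.2 had a mean of 0.904 TPM against 0.0777 for Gm13212, and Gm49760 0.462 against 0.0738 for 5730507C01Rik. Hist3h2bb-ps was at 6.60 TPM and its parent Hist3h2ba, a histone H2B gene, at 2.27, and all 6 libraries of the copy lay between 6.09 and 7.71. The parent, on chromosome 11, was higher in Jmjd3 KO, at 3.18 and 3.61 CPM against 0.803 and 0.653 in Tdt Control (log2 fold change 2.21 ± 0.22, edgeR adjusted p = 0.0035), and the copy had a log2 fold change of -0.02 ± 0.12. Gm3325 was at 2.31 against 0.852 for Zfp808, CT010433.1 at 0.527 against 0.211 for Zfp983, BC023105 at 0.408 against 0.144 for Gm4841 and Gm14057 at 1.54 against 1.11 for Ppp1r14c. Below the parent stood Gm18283, at 0.966 against 1.62 for D3Ertd254e, and Gm8818, at 2.40 against 16.5 for 4930453N24Rik. Rpl37rt stood out by level: at 260 to 319 TPM in the 6 libraries it had a mean of 293 against 477 for Rpl37, with 50.3% own words and an alignment to Rpl37 over 50.4% of its length.

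Library totals ran from 53750675 to 77675388 estimated reads, and replicates correlated at 0.990 to 0.991 across genes on the log2 CPM scale (0.982 to 0.989 between genotypes). Kdm6a was at 7.68 and 7.38 CPM in Utx KO against 30.3 to 34.0 in the other libraries, and Kdm6b at 15.9 and 16.5 CPM in Jmjd3 KO against 22.2 to 29.9 (log2 fold change against Tdt Control -0.70 ± 0.12, edgeR adjusted p = 0.0243), so that the message was reduced and not absent. All 10 satellite cell markers were measured, summing to between 2910 and 3070 CPM in every library. Against Tdt Control, 1 was called higher and 1 lower in Jmjd3 KO (median log2 fold change 0.02). In Utx KO 3 were called higher and 1 lower (median 0.23). Of 8 neutrophil markers, 4 were called higher in Jmjd3 KO than in Tdt Control, with sums of 265 and 201 CPM in the Jmjd3 KO libraries, 127 and 141 in the controls and 175 and 207 in the Utx KO libraries. Of 8 macrophage and monocyte markers, 2 were called higher, with sums of 277 to 319, 202 to 235 and 183 to 218 CPM in that order.

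The comparison of Jmjd3 KO with Tdt Control asks which retrocopies differ where Kdm6b is targeted. Of 783 retrocopies tested, 25 were called, or 3.19%, beside 3.0% of all 17084 genes tested. Called means an adjusted p (Benjamini-Hochberg, across the whole gene table) under 0.05 in edgeR's quasi-likelihood test with all 6 libraries in the fit. Higher in Jmjd3 KO were 23 (1.97% of all genes were) and lower were 2 (1.03% of all genes), a split that became 43 higher and 30 lower without a filter on low counts. The median log2 fold change of the tested retrocopies was -0.04, against 0.00 for all genes. The rule itself bears on these counts. Only the 2 Jmjd3 KO libraries had 10 reads for 16 members, and 15 of the 25 calls were among those, whereas of the 431 members with 10 reads in all 6 libraries 5 were called. The 2 Tdt Control libraries alone had 10 reads for 19 members, and none of those was among the 25.

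The 8 copies of Phgdh were all called higher in Jmjd3 KO. Of these, 7 became members through the Jmjd3 KO libraries alone. Gm7901 also had 22.1 reads in Tdt Control replicate 1, but 5.2 in replicate 2 and 8.9 and 9.4 in Utx KO. It too met the rule only with the Jmjd3 KO libraries, so that the number of these calls is largely set by the rule. Gm7901, which lies in an intron of Iqcm on the other strand, was at 19.1 and 18.7 CPM in the Jmjd3 KO libraries, 0.290 and 0.0759 in the controls and 0.167 and 0.153 in the Utx KO libraries. Its log2 fold change was 6.62 ± 0.27 (SE), adjusted p = 6.67e-05 by edgeR. Gm9347 was at 8.91 and 8.69 CPM in the Jmjd3 KO libraries, while the controls had 0.0658 and 0.0455 CPM and the Utx KO libraries 0.0744 and 0.0680, a log2 fold change of 7.24 ± 0.21 (edgeR adjusted p = 9.49e-06). In both copies the Jmjd3 KO libraries agreed closely and the other 4 libraries were near 0. Gm5207 was at 2.45 and 2.26 CPM, with 0 reads in both Tdt Control libraries, so that it was at least 111-fold higher against a floor of 3 reads over the group. Gm8341 was at 1.80 and 1.81 CPM against 0.0263 and 0.0455 in Tdt Control (log2 fold change 5.60 ± 0.37). Gm13337 had 84 and 110 reads against 4 in each Tdt Control library (4.68 ± 0.38). For Phgdh-ps1, which covers only 754 bases of the Phgdh coding sequence, 126 reads stood against 1 in Tdt Control, 137-fold with a 95% counting interval of 24.2 to 5460.

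The lowest of the 8 were Gm6756, on chromosome 18, and Gm9252. Gm6756 had 95 reads in Jmjd3 KO against 2 in Tdt Control (51.7-fold, 95% counting interval 13.9 to 433). Gm9252 was at 0.274 and 0.325 CPM against 0.0263 and 0.0455 (log2 fold change 3.01 ± 0.58, edgeR adjusted p = 0.0392). The Jmjd3 KO libraries were above all others in each of the 8 copies. For the 7 that met the rule through the Jmjd3 KO libraries alone, this order was set by the rule. Fits without a library rest on the same values that chose the members. Of the 8, 6 were called whichever single library was left out. Gm6756 had an edgeR adjusted p of 0.0541 without Jmjd3 KO replicate 1, and Gm9252 was called in none of the 6 such fits (0.0623 to 0.233). The copies lie on chromosomes 2, 7, 8, 14, 15 and 18, none of them the chromosome of Phgdh, which is 3. Their own words ran from 13.6% (Gm7901) to 59.4% (Gm5207), and they share words with each other or with Phgdh, so they are not independent measurements. In all, 23 annotated processed pseudogenes resembled Phgdh over at least 50% of their length. The 15 that were not members held 39.9 and 44.1 reads in the Jmjd3 KO libraries, 16.6 and 10.1 in the controls and 8.3 and 8.1 in the Utx KO libraries.

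**Figure D2:**
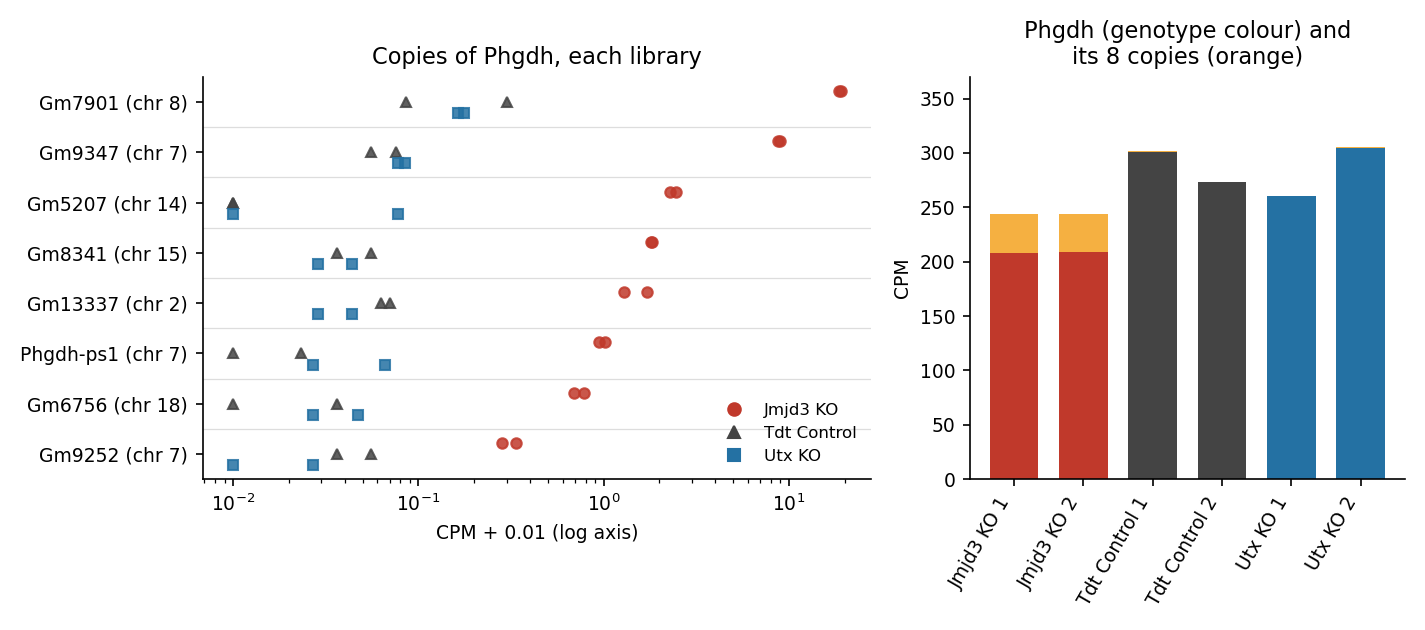
Left, CPM plus 0.01 (log axis) of the 8 copies of Phgdh in each library, with the chromosome of each copy: the red Jmjd3 KO points lie to the right of the 4 other libraries in every row. For 7 of the 8 copies this order was set by the rule. Right, CPM of Phgdh (bar in the colour of the genotype) with the sum of its 8 copies stacked on top in orange, which is 35.5 and 35.2 CPM in Jmjd3 KO and at most 0.50 CPM elsewhere.

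The parent moved the other way. Phgdh itself was at 208 and 209 CPM in the Jmjd3 KO libraries, 301 and 273 in the controls and 260 and 305 in the Utx KO libraries, so that both Jmjd3 KO libraries were the lowest. Its log2 fold change against Tdt Control was -0.46 ± 0.08 (edgeR adjusted p = 0.0285). The 8 copies together held 14.6% and 14.4% of the reads of the family in Jmjd3 KO, and between 0.0999% and 0.166% in the other 4 libraries. With the copies added to the parent, the family was at 243 and 244 CPM in the Jmjd3 KO libraries, 301 and 274 in the controls and 261 and 305 in the Utx KO libraries. The log2 fold change of this sum was -0.24 ± 0.08 (edgeR adjusted p = 0.15), so that the call on Phgdh was lost when the reads of its copies were counted with it. It was also lost when any of the 4 libraries compared was left out, with adjusted p between 0.0603 and 0.168 and log2 fold changes between -0.52 and -0.39. In Utx KO against Tdt Control, Phgdh had a log2 fold change of -0.02 ± 0.08. The partners of Phgdh in serine synthesis, Psat1 and Psph, had -0.12 ± 0.06 and -0.15 ± 0.09 in Jmjd3 KO against Tdt Control (edgeR adjusted p = 0.322 and 0.425). Of 20 genes of serine synthesis and of the ATF4 response to amino acid shortage, 2 were called lower there and none higher. Of all genes, 1.03% were called lower and 1.97% higher. Phgdh itself is among the 2, so the list is not separate from it. The median log2 fold change of the 20 was -0.07.

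Besides the copies of Phgdh, 15 retrocopies were called higher in Jmjd3 KO, and 9 of these had a parent on chromosome 11, between 0.5 and 29.8 megabases from Kdm6b. Whether these distances differ from those of the other parents on chromosome 11 was not tested. The copies themselves lie elsewhere. Of 72 tested retrocopies with a parent on chromosome 11, 9 were called, to be read beside 3.19% of all tested retrocopies and 3.0% of all genes. Of these 9, 5 met the rule through the Jmjd3 KO libraries alone. Of the other 67, 4 were called. Among these, AC127331.2 and Gm5425 also met the rule only with the Jmjd3 KO libraries. AC127331.2 had 11 reads over both Tdt Control libraries and 16 over both Utx KO libraries, and Gm5425 had 13 and 14. The count among the 67 was thus partly set by the rule too. Another 8 were called among the 676 tested with a parent that was neither there nor Phgdh. Of 1284 genes tested on chromosome 11 itself, 8.10% were called in this comparison, against 1.32% in Utx KO against Tdt Control. These groupings by chromosome were made after the values were seen.

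Eif5al3-ps, whose parent is 0.5 megabases from Kdm6b, was at 14.2 and 13.7 CPM in the Jmjd3 KO libraries, 0.171 and 0.228 in the controls and 0.223 and 0.187 in the Utx KO libraries. Its log2 fold change was 6.12 ± 0.16 (edgeR adjusted p = 7.82e-06), while Eif5a had a log2 fold change of 0.01 ± 0.04 (0.915). With 61.2% own words it is among the copies best separated from their parents. Both copies of Arf1 that met the rule were higher. AC127331.2 was at 6.98 and 7.39 CPM against 0.0395 and 0.121 in Tdt Control (6.49 ± 0.35). It met the rule only with the Jmjd3 KO libraries. Gm19587 met the rule through the Jmjd3 KO libraries alone, so being higher there was largely set by it. It had 169 reads against 3, a 61.4-fold difference with a 95% counting interval of 20.6 to 301. Arf1 itself had a log2 fold change of -0.05 ± 0.04.

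Gm18860, a copy of the deadenylase gene Cnot8, was at 2.53 and 2.45 CPM in Jmjd3 KO and had no read in the other 4 libraries, at least 118-fold above Tdt Control. The copies of Smarce1, a subunit of BAF chromatin remodelling complexes, that met the rule, Gm8494 and Gm4811, were higher as well. Gm18860 and both of these met the rule through the Jmjd3 KO libraries alone, so being higher there was largely set by it. Gm8494 was at 3.49 and 2.80 CPM against 0.0921 and 0 in Tdt Control (log2 fold change 5.95 ± 0.63), and Gm4811 at 1.37 and 1.78 against 0.0132 and 0.0607 (5.40 ± 0.48). Smarce1 was at 111 and 113 CPM in Jmjd3 KO against 131 in both Tdt Control libraries (-0.23 ± 0.05, edgeR adjusted p = 0.059), and -0.17 ± 0.05 with its copies added (0.118). Gm16425, a copy of the RNA-binding protein gene Larp1, also met the rule through Jmjd3 KO alone. It was at 1.16 and 0.945 CPM against 0.0658 and 0.0607 (4.01 ± 0.42). Gm5425 was at 1.33 and 1.02 CPM against 0.0658 and 0.121 (3.64 ± 0.56), and its best match is Gm20390, which overlaps Nme1 and Nme2. Gm5425 too met the rule only with the Jmjd3 KO libraries. Its call was lost without any 1 of the Jmjd3 KO and Tdt Control libraries (edgeR adjusted p 0.0674 to 0.129).

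Gm5182 was the longest retrocopy, with 6092 bases and 10.7% own words. It copies Acaca, the acetyl-CoA carboxylase of fatty acid synthesis. It was at 22.1 and 21.6 CPM in the Jmjd3 KO libraries, 5.33 and 3.67 in the controls and 3.40 and 3.82 in the Utx KO libraries, a log2 fold change of 2.27 ± 0.15 (edgeR adjusted p = 0.000667). As with Phgdh, the parent went down: Acaca was at 192 and 194 CPM against 231 and 228 (-0.25 ± 0.04, adjusted p = 0.0299). With the copy added the change was -0.12 ± 0.04 and the adjusted p 0.173. The call on Acaca was also lost with any library left out (0.0556 to 0.19), while its log2 fold change stayed between -0.26 and -0.24. Of 287 parents tested, 9 were called in this comparison on their own reads, 4 higher and 5 lower, which is 3.14% beside the 3.0% of all genes, and with the reads of their copies added 7 were. Of the 25 called retrocopies, 10 had a parent that was called: the 8 copies of Phgdh, Gm5182 and Gm1821. The direction was the same for Gm1821 only. The opposite directions thus came from Phgdh and Acaca, whose calls were both lost with the reads of their copies added.

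**Figure D3:**
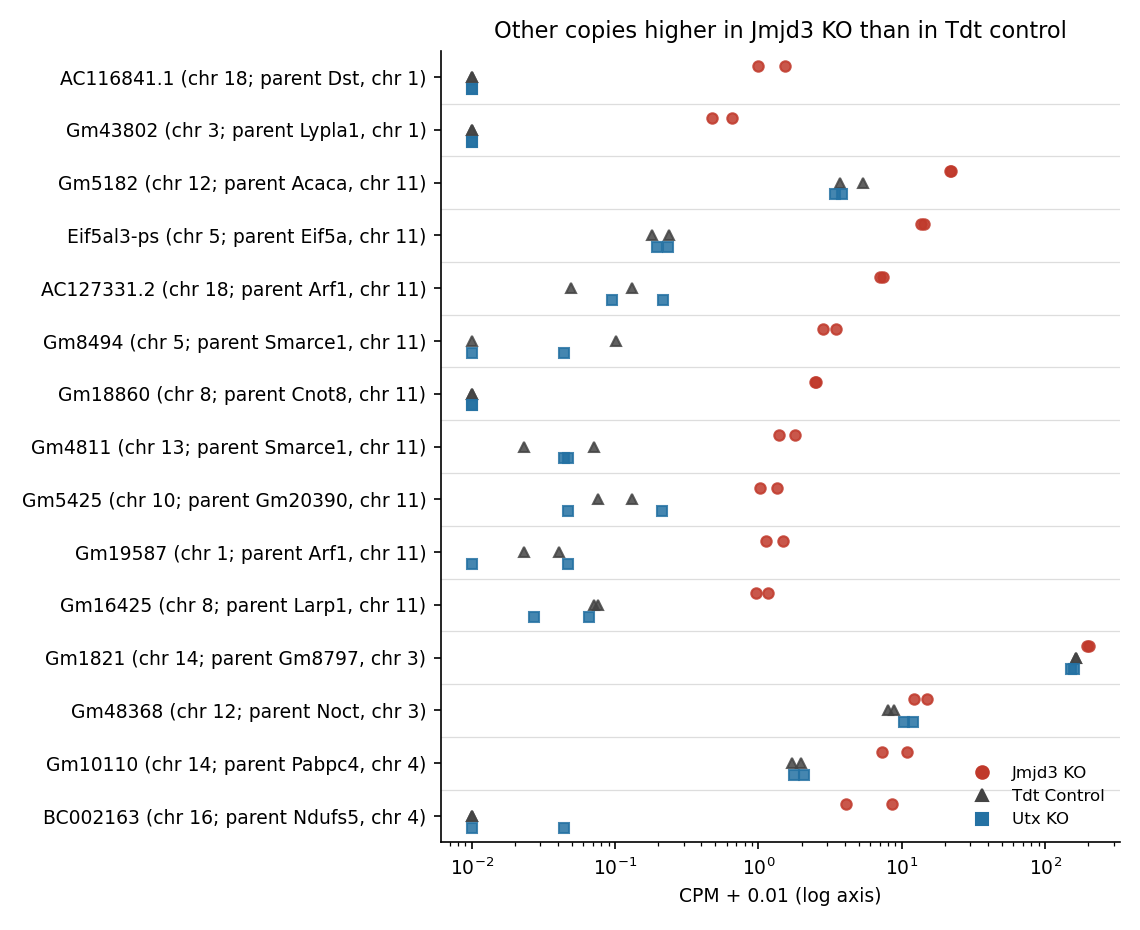
CPM plus 0.01 (log axis) in each library of the 15 retrocopies other than copies of Phgdh that were higher in Jmjd3 KO than in Tdt Control, labelled with their own chromosome and their parent with its chromosome. In 11 of the 15 the Tdt Control libraries are at or under 0.228 CPM, and in every row both red points lie to the right of both black ones.

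Of the 6 others, Gm10110 copies Pabpc4, a cytoplasmic poly(A)-binding protein gene, and BC002163 copies Ndufs5, a subunit of respiratory complex I. Gm10110 was at 7.27 and 10.9 CPM against 1.70 and 1.97 in Tdt Control (log2 fold change 2.31 ± 0.21). BC002163 was at 4.10 and 8.47 CPM with no read in Tdt Control, at least 296-fold higher. Ndufs5 was at 46.4 and 35.6 CPM in Jmjd3 KO against 48.9 and 50.3 in Tdt Control (-0.28 ± 0.11, edgeR adjusted p = 0.219), lower in the library in which the copy was higher. Both parents lie on chromosome 4, Pabpc4 from base 123262351 and Ndufs5 from base 123712710. AC116841.1, a copy of the cytoskeletal linker gene Dst, had 163 reads in Jmjd3 KO and none in the other genotypes, at least 59.2-fold above Tdt Control. Gm43802, which resembles Lypla1 at 77.3% and has no own words, had 72 reads against 0, at least 26.1-fold. BC002163, AC116841.1 and Gm43802 met the rule through the Jmjd3 KO libraries alone, so being higher there was largely set by it.

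Gm48368 and Gm1821 differed less. Gm48368, whose best match is Noct, was at 14.9 and 12.2 CPM in the Jmjd3 KO libraries, 8.78 and 8.03 in the controls and 10.3 and 11.9 in the Utx KO libraries (0.69 ± 0.12). Gm1821 was at 195 and 202 CPM against 165 in both Tdt Control libraries (0.26 ± 0.05, edgeR adjusted p = 0.0392). Its best match is the single-exon gene Gm8797, and among genes with introns it is Ubb, a ubiquitin gene on chromosome 11. The calls of Gm43802, Gm48368 and Gm1821 depended on single libraries, with adjusted p up to 0.125, 0.163 and 0.209. The 2 retrocopies that fell, Gm10163 and Rpl21-ps15, both copy Rpl21 and have no own words. Gm10163 had no read in Jmjd3 KO, against 0.882 and 1.70 CPM in the controls and 0.744 and 0.986 in the Utx KO libraries, at least 54.8-fold lower. Rpl21-ps15 was at 0 against 0.461 and 0.213 CPM, at least 15-fold lower, and was called in 1 of the 6 fits without a library (adjusted p up to 0.142). Rpl21 itself was at 457 and 450 CPM against 471 and 486.

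The neutrophil markers were the cell type list with the most calls in this comparison. Their part in the retrocopy values was not tested.

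In Utx KO against Tdt Control, 7 of the 783 retrocopies were called, or 0.894%, beside 1.72% of all genes. Higher were 2 (0.790% of all genes) and lower were 5 (0.925% of all genes). This balance is not stable: it was 3 higher and 1 lower with only the 4 libraries compared in the fit, and the same without either Jmjd3 KO replicate. The median log2 fold change was -0.06. Gm5900, a copy of Lamtor3, a scaffold subunit of the Ragulator complex on lysosomes, was at 2.49 and 2.91 CPM in Utx KO, 0.0526 and 0.0304 in Tdt Control and 0 in both Jmjd3 KO libraries. Its log2 fold change was 5.94 ± 0.37 (edgeR adjusted p = 0.00323), and it stayed called without any single library. Gm5900 differed from Lamtor3 at 2 of 375 aligned coding bases, and a read within them can tell the 2 apart only at those bases. It held 8.55% and 8.79% of the reads of copy and parent in Utx KO. Lamtor3 was at 26.7 and 30.2 CPM there against 35.4 and 33.9 in Tdt Control (-0.28 ± 0.07, adjusted p = 0.0972), and the change of the sum was -0.16 ± 0.07 (0.301). AC134468.1, for which no parent was found, was at 1.34 and 1.16 CPM in Utx KO and at 0 in the other 4 libraries, at least 58.8-fold above Tdt Control. Both of these met the rule through Utx KO alone, as 3 members did, so being higher there was largely set by it.

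Each of the 5 retrocopies that fell in Utx KO lost its call in 1 or more of the fits without a library, as AC134468.1 did. Gm7334 matches Btg3, an antiproliferative gene, completely and has no own words. It was at 0 in both Utx KO libraries, against 1.43 and 1.09 CPM in the controls and 1.22 and 2.07 in the Jmjd3 KO libraries, at least 47.9-fold lower. Btg3 was at 21.9 and 18.3 CPM in Utx KO against 17.7 and 19.4. Ptges3-ps, a copy of the co-chaperone gene Ptges3 with no own words, had 204 and 355 reads in Utx KO against 1502 and 722 (-1.64 ± 0.29). Both Utx KO libraries were below both controls, which themselves stood well apart. Gm13394, 1 of the 60 copies of Gapdh, was at 0.818 and 0.442 CPM against 2.50 and 2.14 (-1.89 ± 0.29). Gm4813, with 95.2% own words and 87.2% identity to Zbtb44, was at 0.279 and 0.306 CPM against 0.921 and 0.972 (-1.69 ± 0.27), and Jmjd3 KO lay between, at 0.564 and 0.635. Gm5850, a copy of Rpl3, had 29 reads in Tdt Control and none in Utx KO, at least 7.67-fold lower. It met the rule through the Tdt Control libraries alone, so being lower in Utx KO was largely set by it. Leaving out single libraries, Gm7334 kept its call in 4 of 6 fits (edgeR adjusted p up to 0.0609), AC134468.1 in 3 (up to 0.106), Ptges3-ps in 1 (up to 0.22), and Gm13394, Gm4813 and Gm5850 in none (up to 0.126, 0.184 and 0.18). The adjusted p of the 6 parents ran from 0.0972 to 0.945.

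**Figure D4:**
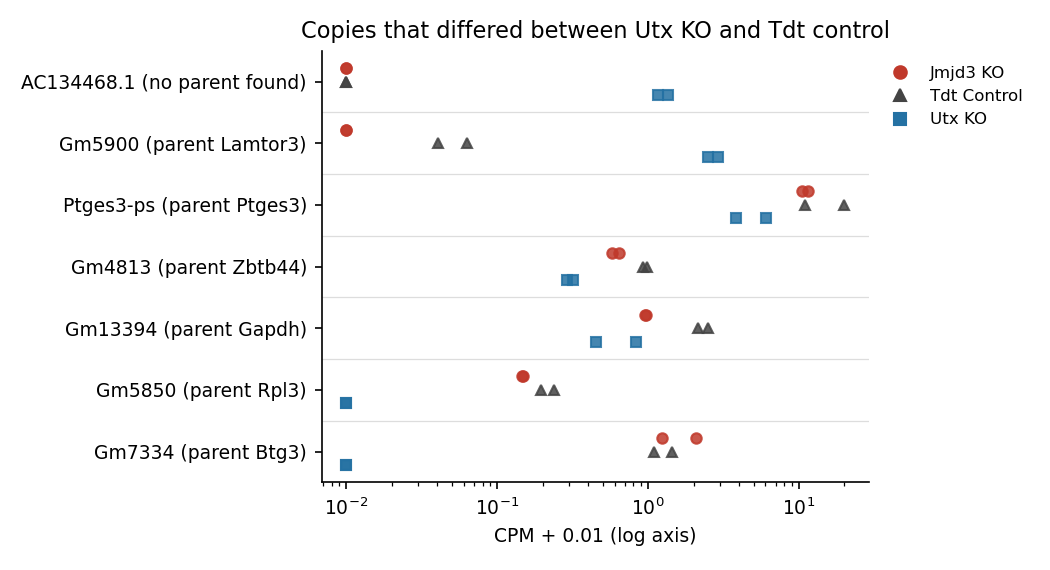
CPM plus 0.01 (log axis) in each library of the 7 retrocopies called between Utx KO and Tdt Control. The blue Utx KO points are to the right of the black ones in the upper 2 rows and to the left in the other 5, and the red Jmjd3 KO points fall on the left edge (0 CPM) for AC134468.1 and Gm5900.

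Set against each other, Jmjd3 KO and Utx KO differed in 37 of 783 retrocopies, or 4.73%, beside 8.02% of all genes. Higher in Jmjd3 KO were 25 (5.13% of all genes) and lower were 12 (2.89% of all genes). The rule bears on these counts too. Of the 37, 15 met the rule through Jmjd3 KO alone, 2 through Utx KO alone and 1 through Tdt Control alone. Of the 431 members that reached the minimum of reads in all 6 libraries, 11 were called, 5 higher and 6 lower. The number of calls and their split were thus partly set by the rule. This comparison shares libraries with both others and does not stand apart from them. The 8 copies of Phgdh were called higher in it (Gm6756 in 4 and Gm9252 in 2 of the 6 fits without a library, with edgeR adjusted p up to 0.0534 and 0.105), Gm7901 by 6.86 ± 0.29 (log2) and Gm9347 by 6.91 ± 0.21, as was Eif5al3-ps by 6.08 ± 0.16. Gm18860 was at least 93.4-fold and Gm7334 at least 61.7-fold higher in Jmjd3 KO, in both cases against 0 reads in Utx KO. Gm5900 was at least 118-fold lower. BC002163 had 816 reads in Jmjd3 KO against 2 in Utx KO (353-fold, 95% counting interval 97.3 to 2920) and Gm8494 410 against 2 (177-fold, 48.8 to 1470). Gm18860, BC002163 and Gm8494 met the rule through Jmjd3 KO alone and Gm5900 through Utx KO alone, so these differences were largely set by it. Other calls were on small differences. Sms-ps, which matches the spermine synthase gene Sms completely, was at 15.8 and 16.2 CPM in the Jmjd3 KO libraries, 19.6 and 18.5 in the controls and 23.3 and 22.9 in the Utx KO libraries (-0.54 ± 0.06, edgeR adjusted p = 0.00338), a call kept without any single library. Sms had a log2 fold change of -0.21 ± 0.06 (adjusted p = 0.0643). Gm15500, the abundant copy of Rpl5, was at 1240 and 1180 CPM against 1340 and 1360 (-0.16 ± 0.04), with an adjusted p of 0.0432 and up to 0.265 without a library.

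The calls were also counted by the kind of parent, to be read beside the 3.0% (Jmjd3 KO) and 1.72% (Utx KO) of all genes called against Tdt Control. In Jmjd3 KO against Tdt Control, 8 of 72 tested copies of glycolysis and serine synthesis genes rose, and these were the copies of Phgdh. Of the 8, 7 met the rule through the Jmjd3 KO libraries alone and Gm7901 needed those libraries too. This count was thus largely set by the rule. Of 302 tested copies of ribosomal protein genes 2 fell, with a median log2 fold change of -0.08, and in Utx KO against Tdt Control 1 fell (median -0.06). Copies of translation factors had 1 call of 26 (Eif5al3-ps), those of a list of RNA-binding protein families that does not hold Larp1 1 of 29 (Gm10110) and those of respiratory chain genes 1 of 9 (BC002163). With 1 call each, these groups are too small to set against the share of all genes.

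Genes that act on retroelements and their copies were read beside the 3.0% of all genes called in Jmjd3 KO and the 1.72% called in Utx KO. Of 20 genes of silencing, such as Trim28 and Setdb1, which place repressive marks on retroelements, none was called in Jmjd3 KO or Utx KO against Tdt Control by edgeR (7 and 2 had an unadjusted p under 0.05), with median log2 fold changes of -0.07 and -0.03. Of 7 genes that restrict retrotransposition or edit its RNA, 2 were called higher in Jmjd3 KO against Tdt Control (median 0.15). Of 10 genes of nonsense-mediated decay, which degrades transcripts with early stop codons, 1 was called higher and 1 lower there (median 0.00).

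The authors' deposited table for Jmjd3 KO against Tdt Control gave an adjusted p to 347 of the 822 retrocopies, of which 23 were under 0.05, 20 of them higher, and 19 were also called here. That is 6.63% of these retrocopies beside 6.1% of all genes with an adjusted p in the authors' deposited table. In the authors' deposited table Eif5al3-ps had the smallest p of all genes, with a log2 fold change of 6.10 and an adjusted p of 2.35e-74. For Gm9347 the authors' deposited table gave 7.19 and 1.04e-35, and for Gm5182 2.26 and 2.87e-35. The authors' deposited table for Utx KO against Tdt Control gave an adjusted p to 434 retrocopies, 9 of them under 0.05, of which 6 were also called here, and a log2 fold change of 5.86 for Gm5900. The share was 2.07% of the retrocopies beside 4.21% of all genes in the authors' deposited table.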

How the data were processed

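Total RNA libraries of sorted satellite cells were quantified by the authors as estimated counts and TPM per transcript, in files laid out as Salmon's output per the file headers. Tools named in the submitters' processing notes are Salmon 1.1.0, cutadapt 2.6 and DESeq2 1.28.1, with builds mm10 and GRCm38. No source used here gives the annotation release. GENCODE M21 (GRCm38) was taken, and transcripts it lacks held 0.151% to 0.175% of reads. The authors' deposited tables of each knockout against Tdt Control hold a mean signal of normalised counts, log2 fold changes and p-values.

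Estimated counts were summed per gene and rounded. edgeR 4.0.16 (R 4.3.3) with TMM scaling and filterByExpr fitted genotype over all 6 libraries with the quasi-likelihood test, leaving 3 residual degrees of freedom. Adjusted p-values are Benjamini-Hochberg over 17084 genes, and 39 of the 822 retrocopies did not pass the filter. The code was tested on simulated data, where more of the calls were false than the threshold of 0.05 allows. False were 10.2% in Jmjd3 KO against Tdt Control, 12.6% in Utx KO against Tdt Control and 17.4% in Jmjd3 KO against Utx KO. Calls are therefore less certain than their adjusted p states. Whether this is confined to calls near the threshold was not tested. Parents are the best blastn (2.17.0+) match among protein-coding transcripts. Own words are 31-base words found in no other gene of M21. Counting intervals are exact at 95%, and they and the floor of 3 reads cover counting error only.

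The members and gene lists were chosen with earlier results of these data known. Described individually are the copies of Phgdh, the 8 called retrocopies with the largest change each way (mean of at least 0.5 CPM, groups apart), the 10 with the highest TPM and the 10 highest relative to their parent (at least 50% own words). The other called retrocopies and genes were named after their values were seen. Alternatives were other scalings, filters, tools (DESeq2 1.42.0), member rules and parents, and leaving out each library. The labels name no batch.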

Additional observations from a re-analysis of the deposited data

How the results depend on the processing

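Signs of fold changes were compared only for called retrocopies and their called parents. In Jmjd3 KO against Utx KO these were the copies of Phgdh, the 8 called retrocopies with the largest change each way, and Phgdh. None of them changed sign under any alternative, but the balance of calls changed. For Jmjd3 KO against Tdt Control, the 25 retrocopies called by edgeR became 73 without a filter on low counts (43 higher and 30 lower, from 23 and 2), 5 among members with 10 reads in all 6 libraries and 5 among those with at least 50% own words. Leaving out each library gave 19 to 26. For Utx KO against Tdt Control, 7 became 61 without a filter, 13 with DESeq2, 3 with transcript length offsets (2 higher and 1 lower), 4 with only the 4 libraries compared (3 higher and 1 lower, from 2 and 5), 3 with 10 reads in all 6 libraries, 1 with own words, and 1 to 4 without a library. For Jmjd3 KO against Utx KO, 37 became 97 without a filter, 11 with 10 reads in all 6 libraries, 7 with own words and 24 to 36 without a library. Parents called, 9, 4 and 28 in those comparisons, became 33, 21 and 89 without a filter, 4, 1 and 10 with length offsets, and 26, 12 and 60 with DESeq2. With only the 4 libraries compared, parents in Utx KO against Tdt Control were 1. Without a library they were 1 to 9, 0 to 0 and 6 to 25, and without Utx KO replicate 2 the 8 higher and 20 lower parents of the last comparison became 6 and 2. The causes were not tested, beyond fewer members or samples entering some fits. With the replicate number as a block, retrocopies called were 25, 4 and 32 and parents 2 (2 higher and 0 lower, from 4 and 5), 1 and 10, but same-numbered libraries did not deviate together (correlations -0.0107, -0.00813 and -0.0532), so the numbers do not pair them. Taking parents from names alone left 132 of 793 retrocopies with a parent, of which 2 rather than 52 exceeded it. Chosen after seeing the data, counts without the copies of Phgdh were 17, 7 and 29, and parents with at least 2 exons left 37 copies above the parent. Low reads limit most retrocopies: 599 tested members were under 1 CPM, with a median difference of 0.36 (log2) between replicates, against 0.11 over all genes.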
